A study of Sus scrofa with 4 samples.

Results

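The genes described here move calcium in and out of the internal store of the muscle fibre: RYR1, STAC, ATP2A1, ATP2A2, CASQ1, CASQ2 and PVALB. They were picked by name from a table of 18208 genes, and all 7 were found, each with 1 entry. The values come from RNA sequencing of the longissimus dorsi, the long back muscle, of 4 pig breeds with 1 library per breed. The indigenous Chinese type comprised the Diannan Small Ear pig (DSP) and the Tibetan pig (TP), and the introduced type comprised Landrace (LL) and Yorkshire (YY). The number of animals behind a library and their sex, age, feeding and genotype are not stated in the labels. The 2 breeds of a type are therefore its replicates, with 1 library each. The p-values rest on the spread between these libraries, in which breed, animal and library preparation cannot be told apart.

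A skeletal muscle fibre contracts when a voltage sensor in its surface membrane opens the ryanodine receptor of the sarcoplasmic reticulum, the internal calcium store. Calcium then binds troponin on the thin filament, and pumps of the SERCA family return it to the store, where calsequestrin holds it until the next release. Fast and slow fibres use different forms of several of these proteins, and a faulty RYR1 channel is the known cause of malignant hyperthermia and stress-prone pale meat in pigs.

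The unit deposited for each breed is FPKM, the number of sequenced fragments divided by gene length and library size. It sets genes of different length on 1 scale, but it carries no read count, so the depth is unknown and no counting error could be given. The FPKM of a library summed to between 880279 (TP) and 1450760 (DSP). Loci shorter than 300 bp outside the mitochondrial genome took 20.6% of that sum in DSP, 17.7% in LL, 5.55% in YY and 1.39% in TP, so the scale of a library depends on what is counted in it. Differences below are in log2(FPKM + 1) and understate the change of low genes. In muscle taken whole, fewer cells of a type and less RNA per cell cannot be told apart.

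Both fibre classes were represented in every library. The 4 fast fibre markers present in the table (MYH1, MYL1, MYLPF and TNNC2, of 9 listed) summed to 46590 and 57600 FPKM in DSP and TP and 21316 and 79241 in LL and YY. The 6 slow fibre markers present (of 7 listed) summed to 4356 and 6527 FPKM in DSP and TP and 5616 and 10646 in LL and YY. Heart muscle markers other than MYH6, a close relative of the slow myosin MYH7, were near 0, with TNNI3 between 0.422 and 2.38 FPKM and TNNT2 between 0.274 and 3.10. Smooth muscle markers, 6 present of 7 and none at 0, summed to 57.4 and 215 FPKM in DSP and TP and 67.7 and 105 in LL and YY. Nerve and Schwann cell markers, 6 present of 7 and none at 0, summed to between 12.5 and 35.8 FPKM, and adipocyte markers, 4 present of 6, to between 24.4 and 120.1 FPKM with LEP listed at 0 in every library but TP.

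The 7 genes formed an abundant and a scarce group. ATP2A1, CASQ1, RYR1 and ATP2A2 lay between 382 and 5335 FPKM, whereas PVALB, STAC and CASQ2 lay between 1.82 and 29.7 FPKM. ATP2A1 was the most abundant in DSP, TP, LL and YY, ranking 37, 31, 44 and 38 among all 18208 entries. LL had the lowest value of 4 of the 7 genes (STAC, ATP2A1, CASQ1 and PVALB), against 26.6% of all 11652 genes averaging 1 FPKM or more. YY had the lowest value of ATP2A2 and CASQ2, against 26.1% of all genes. These lowest libraries stayed the same for all 6 genes under the 3 rescalings of the libraries that were tried. The lowest value of RYR1 was in TP as deposited and under the median ratio scaling, but in YY under both rescalings to a common sum.

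**Figure D1:**
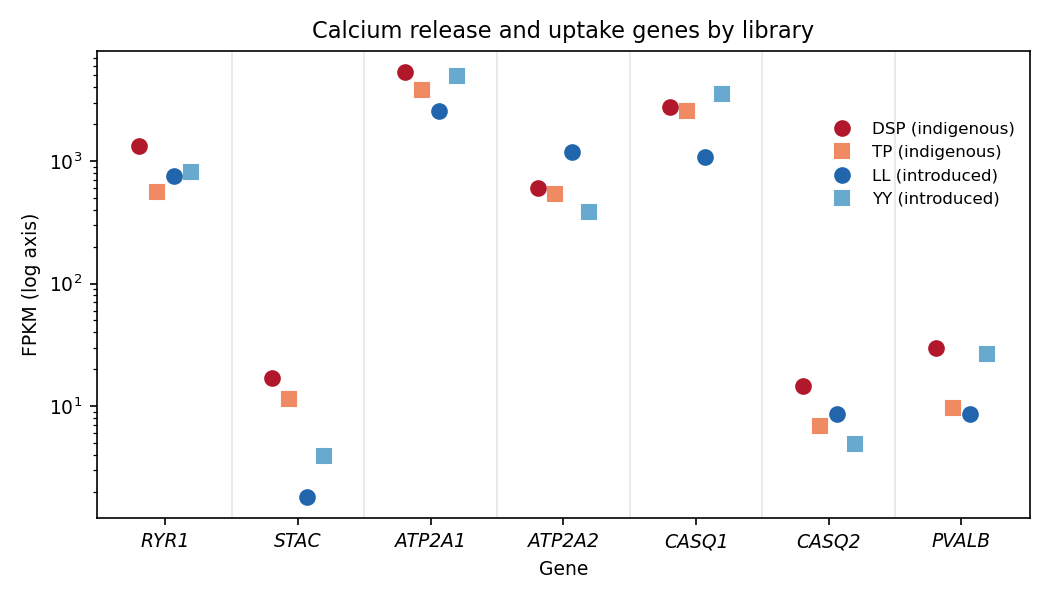
FPKM (vertical log axis) of the 7 genes in each of the 4 libraries, with red and orange for the indigenous DSP and TP and blues for the introduced LL and YY; each point is 1 library. ATP2A1, CASQ1, RYR1 and ATP2A2 lie between 382 and 5335 FPKM and the other 3 genes between 1.82 and 29.7; STAC alone has both indigenous points above both introduced ones.

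RYR1 encodes the ryanodine receptor of skeletal muscle, the channel through which calcium leaves the store. Its entry (ENSSSCG00000002961) spans 119868 bp on chromosome 6, from 42840239 to 42960106 in the coordinates of the deposited table, whose genome build is not given in the sources used here. RYR1 stood at 1328 and 555 FPKM in DSP and TP and 749 and 813 in LL and YY. DSP was above the other 3 libraries and TP below them, so the indigenous breeds bracketed the introduced ones. The indigenous mean was 942 ± 547 FPKM (SD, n = 2) and the introduced mean 781 ± 44.9 (SD, n = 2). The difference of 0.14 was smaller than its error (SE 0.94, 95% interval −2.11 to 2.38, limma adjusted p = 1). Other genes with very long transcripts were also lowest in TP, in 4 of the 5 looked at after the data were seen. NEB, which encodes the giant thin filament protein nebulin, was 1912 and 786 FPKM in DSP and TP and 1116 and 1495 in LL and YY. Whether transcript length has a part in the RYR1 order was not tested.

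CACNA1S, the pore-forming subunit of the voltage sensor that gates RYR1, was 346 and 143 FPKM in DSP and TP and 160 and 193 in LL and YY. The ratio of RYR1 to CACNA1S within a library does not depend on how the library was scaled, and was 3.84 and 3.87 in DSP and TP and 4.70 and 4.22 in LL and YY. It therefore moved by 1.22-fold from lowest to highest while RYR1 itself moved by 2.39-fold. This ratio was chosen after the values were seen, as were 4 others described below, and other subunits of the sensor ran in other orders.

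STAC encodes an adaptor protein that binds voltage-gated calcium channels, and a related gene, STAC3, serves the voltage sensor of skeletal muscle. The STAC entry (ENSSSCG00000023085) spans 76753 bp on chromosome 13, from 23347843 to 23424595. This is 64.4% of the length of the STAC gene in the Sscrofa11.1 assembly, so the entry may not read the whole gene. STAC stood at 16.8 and 11.4 FPKM in DSP and TP and 1.82 and 3.91 in LL and YY. Both indigenous libraries were above both introduced ones, and STAC was the only 1 of the 7 genes for which the types did not overlap as deposited. Over all genes tested, the types did not overlap in 18.6%, with the indigenous type above in 9.47%, so 1 gene of 7 is near the background. The indigenous mean was 14.1 ± 3.82 FPKM and the introduced mean 2.87 ± 1.48 (SD, n = 2 each), a ratio of 4.92. The difference was 2.0 (SE 0.51, 95% interval 0.78 to 3.21), and it did not pass adjustment over 11652 genes (limma adjusted p = 1). STAC was known from earlier results of these data to differ in this direction when the 7 genes were chosen, so its values are a description.

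STAC also had the widest relative range of the 7 genes, 9.23-fold from LL to DSP, and its rank moved most. It was above 80.0% of all entries in DSP and 78.5% in TP, but above 44.3% in LL and 59.1% in YY. The types stayed apart under each of the 3 rescalings, with a highest over lowest ratio between 6.51 and 8.74. STAC3, in contrast, stood at 410 and 391 FPKM in DSP and TP and 241 and 715 in LL and YY, so its types overlapped (difference −0.05, SE 0.91, limma adjusted p = 1). The third relative, STAC2, stayed at or below 0.292 FPKM in every library. The nerve and Schwann cell marker sum was 24.4 and 35.8 FPKM in DSP and TP and 12.5 and 17.5 in LL and YY, also higher in both indigenous libraries. The part of this in the STAC values was not tested.

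ATP2A1 encodes SERCA1, the calcium pump of fast fibres. Its entry (ENSSSCG00000007805) spans 38165 bp on chromosome 3, from 18733278 to 18771442, and overlaps the entry of RABEP2. The span is 164% of the length of the ATP2A1 gene in the Sscrofa11.1 assembly. ATP2A1 stood at 5335 and 3769 FPKM in DSP and TP and 2539 and 4922 in LL and YY. DSP was highest and LL lowest, with YY above TP, so the types overlapped as deposited. Under both rescalings to a common sum they did not, since TP then stood above YY (4718 against 4108, and 4492 against 3989). The means were 4552 ± 1107 FPKM in the indigenous and 3730 ± 1685 in the introduced type (SD, n = 2 each), with a difference of 0.34 (SE 1.10, 95% interval −2.27 to 2.96, limma adjusted p = 1).

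ATP2A2 encodes SERCA2, the pump of slow fibres and the heart, with a further form in most other cells. Its entry (ENSSSCG00000027344) lies on chromosome 14, from 33642792 to 33644868, and spans 2077 bp, only 2.95% of the length of the ATP2A2 gene in the Sscrofa11.1 assembly. The value thus reads a fragment of the gene, and how reads shared by the closely related ATP2A1 and ATP2A2 were assigned is not given in the sources used here. ATP2A2 stood at 608 and 539 FPKM in DSP and TP and 1186 and 382 in LL and YY. LL was highest and YY lowest, so both extremes fell in the introduced type. The means were 573 ± 48.6 FPKM in the indigenous and 784 ± 568 in the introduced type, with a difference of −0.23 (SE 0.96, 95% interval −2.52 to 2.05, limma adjusted p = 1).

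Set against each other, the pumps separated Landrace from the other breeds. ATP2A1 over ATP2A2 was 8.78 and 6.99 in DSP and TP and 2.14 and 12.9 in LL and YY. ATP2A2 made up 31.8% of the summed SERCA1 and SERCA2 FPKM in LL, against 10.2% in DSP, 12.5% in TP and 7.20% in YY. In log2 units the ratio averaged 2.97 ± 0.23 in the indigenous and 2.39 ± 1.83 in the introduced type (SD, n = 2 each), so the types overlapped and the spread lay between LL and YY. With 2 libraries against 2, an exact permutation test cannot give a p under 0.333, and none was run on the ratios.

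CASQ1 encodes the main calsequestrin of fast fibres, the protein that holds calcium in the store. Its entry (ENSSSCG00000006390) spans 10647 bp on chromosome 4, from 98218158 to 98228804. CASQ1 stood at 2753 and 2545 FPKM in DSP and TP and 1081 and 3550 in LL and YY. LL was lowest and YY highest, 3.28-fold apart, with both indigenous breeds between them. The means were 2649 ± 147 FPKM and 2315 ± 1746 (SD, n = 2 each), with a difference of 0.43 (SE 1.10, 95% interval −2.18 to 3.05, limma adjusted p = 1).

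CASQ2 encodes the calsequestrin of the heart, which slow fibres also make. Its entry (ENSSSCG00000006745) spans 63130 bp on chromosome 4, from 115007631 to 115070760. CASQ2 stood at 14.7 and 6.88 FPKM in DSP and TP and 8.62 and 4.88 in LL and YY. DSP was highest and YY lowest, and the types overlapped. The difference was 0.56 (SE 0.56, 95% interval −0.77 to 1.90, limma adjusted p = 1), between means of 10.8 ± 5.52 and 6.75 ± 2.65 FPKM.

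The calsequestrins were far more unequal than the pumps. CASQ1 over CASQ2 was 187 and 370 in DSP and TP and 125 and 728 in LL and YY. CASQ2 held between 0.137% (YY) and 0.791% (LL) of the summed calsequestrin FPKM. As with ATP2A1 among the pumps, CASQ1 had its lowest share in LL and its highest in YY, but here DSP lay close to LL. CASQ2 did not run with the slow fibre markers. It was highest in DSP, where their sum was lowest (4356 FPKM), and lowest in YY, where it was highest (10646 FPKM). The log2 ratio averaged 8.04 ± 0.69 in the indigenous and 8.24 ± 1.79 in the introduced type.

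The fibre type genes gave a partly similar order. MYH1, a fast myosin, over MYH7, the slow myosin, was 12.6 and 9.74 in DSP and TP and 3.16 and 6.57 in LL and YY. TNNC2 over TNNC1, the fast and slow calcium-binding troponins, was 10.8 and 6.99 in DSP and TP and 4.47 and 8.02 in LL and YY. LL was lowest in all 4 of the pump, calsequestrin, myosin and troponin ratios, while YY was highest only in those of the pumps and the calsequestrins. The myosin genes are near-identical neighbours, and reference tables give the MYH1 and MYH7 entries other symbols (MYH8 and MYH6), so their values are uncertain. How far fibre type composition has a part in the pump and calsequestrin ratios was not tested.

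**Figure D2:**
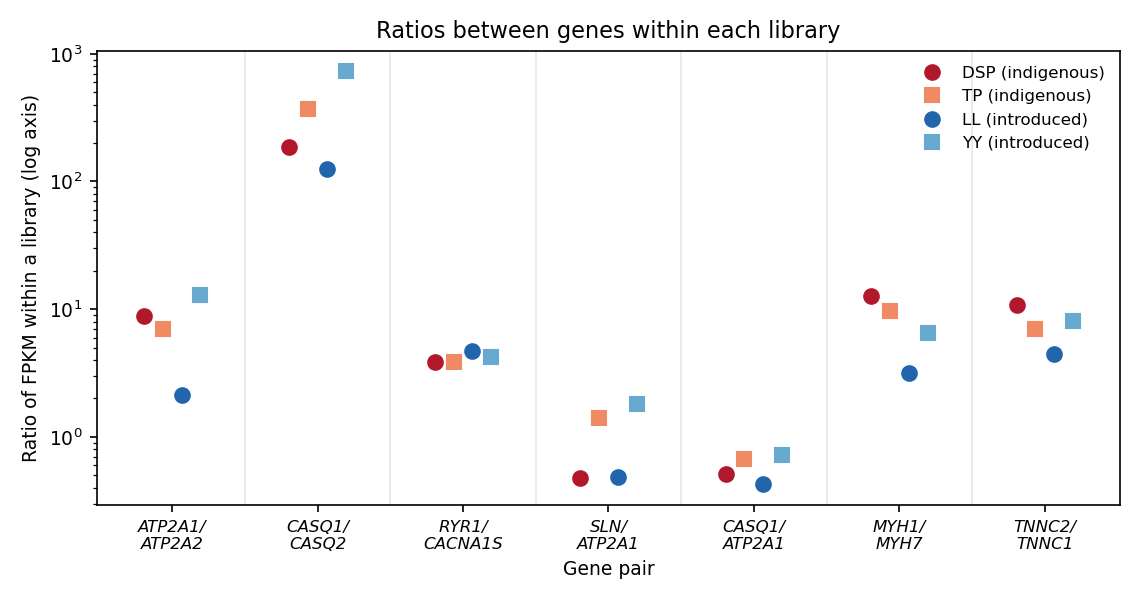
Ratio of the FPKM of 2 genes within a library (vertical log axis) for 7 gene pairs, with 1 point per library. LL is the lowest point for ATP2A1/ATP2A2 (2.14), CASQ1/CASQ2 (125), MYH1/MYH7 (3.16) and TNNC2/TNNC1 (4.47), while RYR1/CACNA1S stays between 3.84 and 4.70.

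The store protein also varied against its pump. CASQ1 over ATP2A1 was 0.516 and 0.675 in DSP and TP and 0.426 and 0.721 in LL and YY, a 1.69-fold range. TP and YY lay above DSP and LL in this ratio, and the types overlapped.

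PVALB encodes parvalbumin, a cytosolic calcium buffer that speeds relaxation and is abundant in the fast fibres of rodents. Its entry (ENSSSCG00000000138) spans 19694 bp on chromosome 5, from 8553414 to 8573107. PVALB stood at 29.7 and 9.66 FPKM in DSP and TP and 8.66 and 26.5 in LL and YY. DSP and YY were thus high and TP and LL low, 1 of each in either type. The indigenous mean of 19.7 ± 14.1 differed from the introduced mean of 17.6 ± 12.6 by 0.15 (SE 0.77, 95% interval −1.68 to 1.98, limma adjusted p = 1). PVALB ranked between 2374 (DSP) and 5167 (LL) among all entries, below ATP2A1, ATP2A2 and CASQ1 and above CASQ2 in each library.

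Between the types, 0 of the 7 genes passed limma at an adjusted p under 0.05, as did 0 of all 11652 genes tested (background 0%). Of the 7, 1, STAC, had an unadjusted limma p under 0.05, where 1.12% of all genes did. The STAC difference was known when the 7 genes were chosen, so neither its p nor its direction is read as a result. Of the 7 differences, 6 were above 0, where 5551 of all 11652 genes were above 0. The median of the 7 was 0.34 against −0.02 over all genes tested. The intervals of RYR1, ATP2A1, ATP2A2 and CASQ1 each reached past 2 in both directions, so each interval held differences of 4-fold either way. Leaving out 1 library turned the direction of 5 of the 7 differences. RYR1 moved to −0.49 without DSP, PVALB to −0.61 without DSP and also without LL, and without LL ATP2A1 moved to −0.13, ATP2A2 to 0.58 and CASQ1 to −0.42. Only STAC and CASQ2 kept their direction throughout, and CASQ2 fell to 0.07 without DSP.

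**Figure D3:**
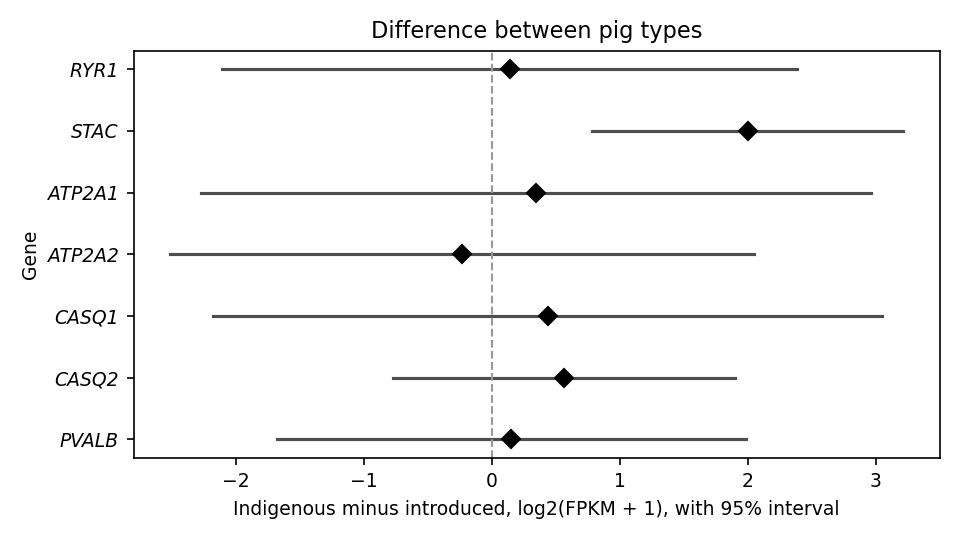
Indigenous minus introduced difference in log2(FPKM + 1) (horizontal axis) of each of the 7 genes, with its 95% interval from limma over 2 libraries against 2. The STAC interval, 0.78 to 3.21, lies above 0 before adjustment, and the other 6 intervals span 0.

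The authors' deposited table compares the means of the types for these genes. It gives a false discovery rate of 0.0133 for RYR1, 1.06e-14 for ATP2A1, 1.38e-07 for ATP2A2 and 0.00136 for CASQ1. For STAC the authors' deposited table gives 0.189, and for CASQ2 and PVALB 1. Over the whole of the authors' deposited table, 3.32% of the 18208 genes are under 0.05. For each of the 7 genes, the mean FPKM of each type was rounded up, treated as a count and put through Fisher's exact test. The p obtained in this way lay between 0.913 and 1 times the p-value in the authors' deposited table. That calculation reads no spread between breeds and grows with expression, and the 4 genes under 0.05 are the 4 abundant ones while the widest fold, 4.92 for STAC, is not.

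Within the indigenous type, all 7 genes were higher in DSP than in TP as deposited. This count was 5 under the median ratio scaling, 4 under the common sum without the 50 genes of highest mean and 5 under the common sum of loci of at least 300 bp. The median DSP minus TP difference over all genes moved as well. It was 0.20 as deposited, 0.04 under the median ratio scaling and −0.23 and −0.20 under the common sums. RYR1 and PVALB were at least 2-fold higher in DSP, with differences of 1.26 and 1.52, and CASQ2 was just short of that line at 0.99. This is 2 of 7, where 15.6% of 11689 genes were at least 2-fold higher in DSP, and 0 of 7 were at least 2-fold higher in TP, where 7.76% of all genes were. PVALB stayed past 2-fold under each rescaling (1.05 to 1.34), whereas RYR1 dropped to 0.75 and 0.78 under the common sums. ATP2A2 and CASQ1 differed by 0.17 and 0.11 and turned below 0 under each rescaling. With 1 library per breed there is no replicate check.

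Within the introduced type, CASQ1 and PVALB were at least 2-fold higher in YY and ATP2A2 at least 2-fold higher in LL. The LL minus YY differences were −1.71 for CASQ1, −1.51 for PVALB and 1.63 for ATP2A2. Of all 11412 genes, 16.7% were at least 2-fold higher in YY and 13.4% at least 2-fold higher in LL. CASQ1 and ATP2A2 stayed past 2-fold under each rescaling, and PVALB ranged from −1.60 to −0.97. ATP2A1 was −0.95 and reached 2-fold under the median ratio scaling, at −1.05. CASQ2 was 0.71 and passed 2-fold under the common sums, at 1.03 and 1.21. STAC was −0.80, and RYR1, at −0.12, turned to 0.27 and 0.46 under the common sums. The median LL minus YY difference over all genes moved as well, from 0.005 as deposited to 0.33 and 0.50 under these sums. Without the 50 genes of highest mean, 2455 of 11378 genes were at least 2-fold higher in LL and 1204 in YY. Over loci of at least 300 bp, these numbers were 3167 and 942 of 11512. The comparisons of the breeds within a type have no replicates.

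Other genes of calcium handling were read from 7 lists of 79 genes, of which 68 were in the table and 61 averaged 1 FPKM or more. Between the types 0 of the 61 passed in either direction (limma, adjusted p under 0.05). Of the 61, 39 were above 0 and 22 below, where 5551 of all 11652 genes were above 0. The median was 0.18 against −0.02 over all genes tested. The types did not overlap in 13 of the 61, with 9 above and 4 below, where the background was 9.47% above and 9.17% below. As deposited, LL had the lowest value of 22 of the 61, where it was lowest in 26.6% of all genes. The medians given below turned in sign for 7 of the 7 lists when 1 library was left out.

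The voltage sensor list, with 6 of 7 genes tested, had 0 passing and a median of 0.13. CACNG1, the gamma subunit of the sensor, was 113 and 222 FPKM in DSP and TP and 59.3 and 318 in LL and YY. CACNG6, another gamma subunit, was 5.90, 18.5, 8.38 and 16.7 FPKM in DSP, TP, LL and YY. Both gamma subunits were thus higher in TP and YY than in DSP and LL, unlike CACNA1S, which peaked in DSP. The share of all genes that split the libraries this way was not computed. The split, here and below, is therefore not read as a trait of calcium genes.

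The triad list, named for the junction of surface membrane and store, had 11 of 15 genes tested, 0 passing, 9 above 0 and a median of 0.49. Of all 11652 genes tested, 5551 were above 0. The 9 include the short RYR3 entry described below, with a difference of 2.52. TRDN, which encodes triadin, the anchor between calsequestrin and the ryanodine receptor, was 1019 and 233 FPKM in DSP and TP and 545 and 394 in LL and YY. DSP was highest and TP lowest for TRDN, as for RYR1. SRL, which encodes the store protein sarcalumenin, was 408 and 235 FPKM in DSP and TP and 213 and 229 in LL and YY. SYPL2, a membrane protein of the triad, was 158, 220, 67.5 and 145 FPKM in DSP, TP, LL and YY. SRL and SYPL2 were among the 4 of 11 genes of this list in which both indigenous libraries were above both introduced ones, and in 1, HOMER2, named after its values were seen, both were below. Over all genes these shares were 9.47% and 9.17%. The differences of SRL and SYPL2 were 0.49 and 0.90 (limma adjusted p = 1 for both). The RYR3 entry with the highest mean spans 121 bp and was 1044 FPKM in DSP, 30.6 in YY and listed at 0 in TP and LL, so it does not read the whole of that ryanodine receptor gene. RYR2, the ryanodine receptor of the heart, stayed at or below 0.0886 FPKM.

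The pump inhibitors SLN and PLN both varied more between breeds than ATP2A1. MRLN, ARLN and ERLN, other pump regulators on the list, were not in the table and could not be read. SLN, which encodes sarcolipin, a small inhibitor of SERCA, was 2548 and 5274 FPKM in DSP and TP and 1226 and 8894 in LL and YY. It was highest in YY and lowest in LL, and its types overlapped (difference 0.15, SE 1.33, limma adjusted p = 1). SLN over ATP2A1 was 0.478 and 1.40 in DSP and TP and 0.483 and 1.81 in LL and YY, a 3.78-fold range in which TP and YY stood above DSP and LL. PLN, which encodes phospholamban, the inhibitor of SERCA2 in heart and slow fibres, was 52.8, 129, 83.8 and 192 FPKM in DSP, TP, LL and YY. PLN too was higher in TP and YY than in DSP and LL. SELENON, a selenoprotein of the store, was 16.5, 11.4, 14.9 and 6.56 FPKM. The list had 5 of 10 genes tested, 0 passing and a median of 0.07.

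Inositol trisphosphate receptors, a second kind of release channel, were scarce. ITPR1 lay between 0.339 and 1.57 FPKM and ITPR2 between 1.12 and 2.90, both lowest in YY. STIM1, the sensor of store filling, was 27.4, 20.3, 18.4 and 20.2 FPKM, and ORAI1, the channel it opens, was 24.0, 15.9, 9.62 and 20.5 FPKM in DSP, TP, LL and YY. This list had 6 of 10 genes tested, 0 passing and a median of 0.28.

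The genes that export calcium through the surface membrane were lowest in TP in 4 of 5 tested (of 7 listed), where TP was lowest in 35.0% of all genes. That count stayed at 4 under the median ratio scaling and was 2 under both rescalings to a common sum, where YY was lowest in 3. ATP2B1, a calcium pump of the plasma membrane, was 59.4, 25.4, 66.6 and 35.1 FPKM in DSP, TP, LL and YY. ATP2B4 was 16.5, 6.24, 32.4 and 6.71 FPKM and ATP2B2 24.8, 3.70, 8.96 and 8.04. For ATP2B1 and ATP2B4 the values of DSP and LL were above those of TP and YY, the reverse of SLN and PLN. The libraries themselves paired in this way. Loci shorter than 300 bp took 20.6% and 17.7% of the FPKM sum in DSP and LL, against 1.39% and 5.55% in TP and YY. The part of this in the split was not tested, and the share of all genes that split this way was not computed. The list had 0 genes passing and a median of −0.31.

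Mitochondria take up part of the released calcium. MCU, the channel of the uniporter, was 107, 39.1, 98.8 and 86.3 FPKM in DSP, TP, LL and YY. SMDT1, a small subunit required by that channel, was 21.8, 62.5, 14.9 and 93.5 FPKM, high where SLN was high. VDAC1 and VDAC2, pores of the outer membrane, were 353, 461, 218 and 550 FPKM and 479, 277, 291 and 376 FPKM. All 12 genes of the list were tested, 0 passed and the median was 0.17.

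In the calmodulin, calcineurin and CaMKII list, 16 of 18 genes were tested, 0 passed and the median was 0.15. CALM3, which encodes the calcium sensor calmodulin, was 197, 307, 123 and 634 FPKM in DSP, TP, LL and YY. PPP3CA, a catalytic subunit of the phosphatase calcineurin, was 98.6, 36.5, 44.2 and 21.4 FPKM. MYOZ1, a calcineurin-binding protein of fast fibres, was 2191, 2204, 1295 and 5303 FPKM. S100A1, a calcium-binding protein that acts on the ryanodine receptor, was read from an entry of 336 bp at 12.3, 33.6, 19.6 and 174 FPKM. The 1 gene of this list with an unadjusted limma p under 0.05 was MYOZ2, named after its values were seen. MYOZ2, a calcineurin-binding protein of slow fibres read from an entry of 1462 bp, was 162 and 168 FPKM in DSP and TP and 537 and 687 in LL and YY (difference −1.87, SE 0.78, limma adjusted p = 1).

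**Figure D4:**
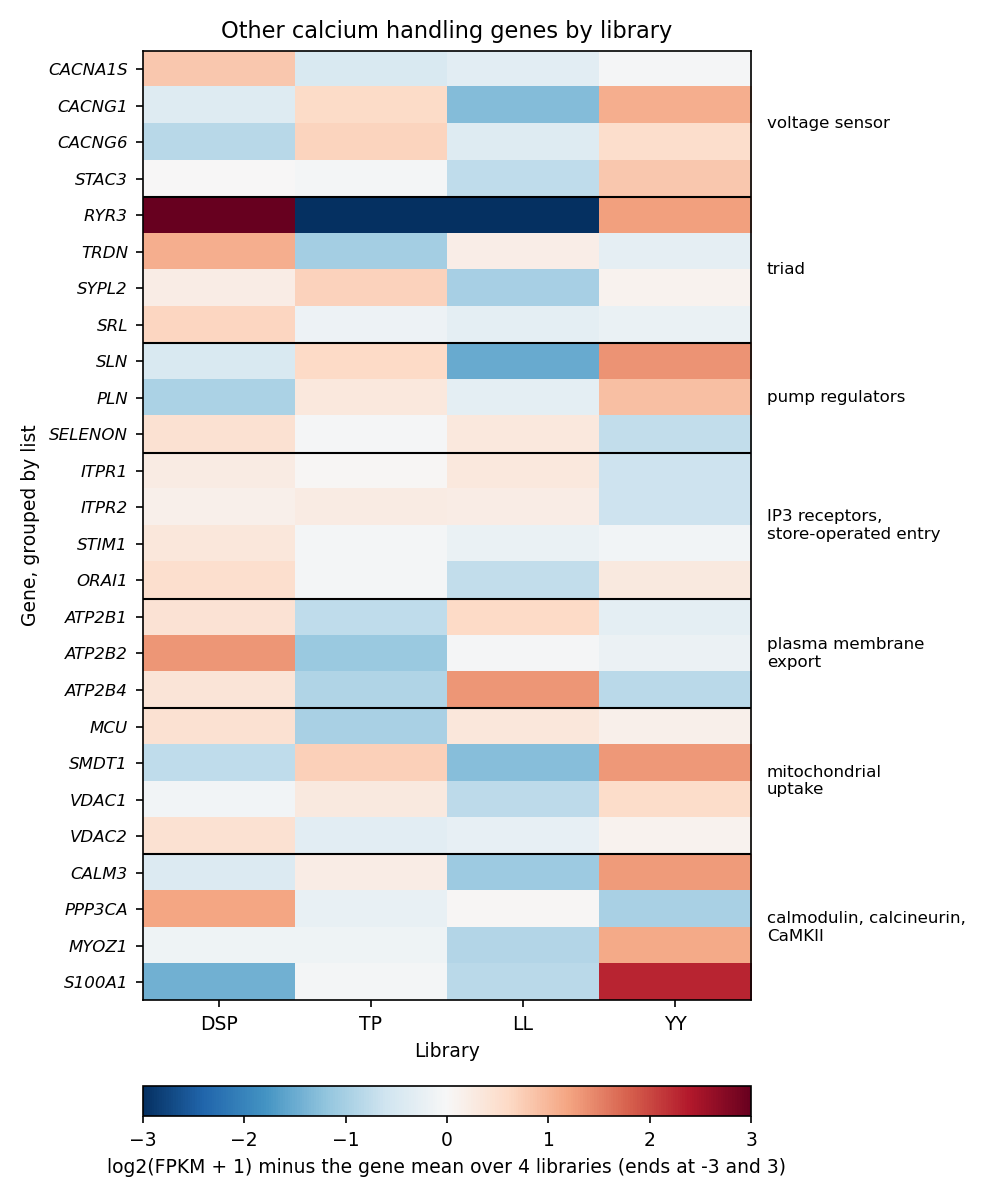
log2(FPKM + 1) minus the mean of the gene over the 4 libraries (colour, ending at −3 and 3) for the genes named by rule from 7 lists (rows) in each library (columns). SLN, PLN and SMDT1 are high in TP and YY, ATP2B4 is highest in LL at 32.4 FPKM, and TRDN is highest in DSP at 1019 FPKM.

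The genes whose values over the 4 libraries ran most like those of each of the 7 were sought among 6017 named genes averaging 5 FPKM or more, by the Euclidean distance between log2(FPKM + 1) values centred on the gene's own mean. With 4 values per gene, such likeness is a description only. For ATP2A1 the nearest were PHGK, ASB10 and C8orf82 (distances 0.03 to 0.06), and for RYR1 they were HCFC1, ENSA and DAGLB (0.06 to 0.08). For CASQ1 they were MYBPC2, which encodes the fast form of myosin-binding protein C, C11orf83 and MRPS14 (0.19 to 0.20). For ATP2A2 they were ANXA2, MPP5 and FZD4 (0.15 to 0.19), and for CASQ2 ND4L, CAMK2G and CCDC91 (0.12 to 0.14). PVALB had SLC37A4, KBTBD12 and HOMER1 nearest (0.40 to 0.42). STAC had the most distant neighbours, HR, KY and KCNS3 (0.55 to 0.74).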

How the data were processed

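RNA of longissimus dorsi muscle from 4 breeds was sequenced, and TopHat is the tool listed in the submitters' processing notes. Neither a TopHat version nor a build, an annotation or a program for the expression values is given in these sources. The FPKM of each breed is as deposited by the authors, per the file headers. Their table also holds a mean FPKM per type, the ratio (fold change) of the type means, and a p-value with a false discovery rate, deposited by the authors. The other 2 deposited sheets were not used.

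Indigenous and introduced libraries were compared by limma 3.58.1 in R 4.3.3, with a trended prior, on log2(FPKM + 1) of genes averaging 1 FPKM or more, with Benjamini-Hochberg adjustment over all of them and a threshold of 0.05. Breeds within a type were compared without a test, and 2-fold means a difference of at least 1 in log2(FPKM + 1) in a gene averaging 1 FPKM or more over both libraries. Names came from the table or, by gene ID or synonym, from reference tables of Sscrofa11.1. From each list the 2 most abundant genes and the 3 of widest range were named, with exceptions stated, and 1 gene that this rule took is not reported here. The members and lists were chosen with earlier results of these data known. Alternatives were the pseudocount (0.1, 5), the filter (none, 5 FPKM), rescalings, summed entries, the prior variance and leaving out each library. The limma step was tested on simulated data. Python 3.11.15 with scipy 1.17.1, pandas 2.3.3, numpy 2.4.6 and matplotlib 3.10.9 was used.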

Additional observations from a re-analysis of the deposited data

How the results depend on the processing

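Over all genes, limma passed 0 in every setting but 2: 3 genes with a pseudocount of 0.1, and between 0 and 29 when 1 library was left out, the 29 without YY. Of the 7 calcium genes and of the 61 others, 0 passed in every setting run. The types did not overlap in 2 of the 7 genes, STAC and ATP2A1, after rescaling to a common sum without the 50 genes of highest mean (18.1% of all genes), and in the same 2 over loci of at least 300 bp, an alternative chosen after the data were seen (16.7%). With 1 library left out that count ran from 2 to 5, since fewer libraries overlap less. The share over all genes was not computed with a library left out, so nothing about the 7 genes is read from these counts. Of the 7 genes, the number at least 2-fold apart between DSP and TP was 1 under each of the common sums. Without the 50 genes of highest mean, 878 of 11816 genes were at least 2-fold higher in DSP and 1943 in TP. Over loci of at least 300 bp, these numbers were 909 and 1826 of 11730. Leaving out a library turned RYR1 (−0.49) and PVALB (−0.61) without DSP, and ATP2A1 (−0.13), ATP2A2 (0.58), CASQ1 (−0.42) and PVALB (−0.61) without LL. Their ranges with 1 library left out were −0.49 to 0.77 for RYR1, −0.61 to 0.91 for PVALB, −0.13 to 0.82 for ATP2A1, −1.05 to 0.58 for ATP2A2 and −0.42 to 1.29 for CASQ1, and the cause was not tested. The STAC difference ran from 1.28 to 2.33 over the settings and from 1.60 to 2.40 with 1 library left out, with adjusted p from 0.973 to 1. List medians with 1 library left out ran from −0.60 to 0.70 for the voltage sensor, −0.23 to 0.65 for the triad, −0.19 to 0.18 for pump regulators, −0.07 to 0.37 for store-operated entry, −1.01 to 0.29 for export, −0.05 to 0.29 for mitochondrial uptake and −0.19 to 0.45 for the calmodulin list. A library alone in its type was assumed to vary like the other type. No paired analysis was possible because the labels carry no replicate numbers. Depth is unknown, so the error of the scarce genes (STAC, CASQ2, PVALB) within a library could not be given.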
